A study of Mus musculus with 19 samples.

Results

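Tumour cells carrying the surface protein EpCAM were compared between mice given neratinib and mice given vehicle, to ask how the drug changed their transcripts. The libraries are those whose label names the epithelial sort, 11 of the 19 libraries of the series: 6 with vehicle and 5 with neratinib. In both groups the tumours arose from KPC organoids of the kind labelled T-LOH, grown in the pancreas of C57BL/6J mice after orthotopic transplantation, and both treatments lasted 2 weeks. KPC tumours are a genetically engineered model of pancreatic ductal adenocarcinoma (PDAC), and all groups share its alleles. How many organoid lines were used, at what dose, and in hosts of what age and sex is not stated in the labels. Each label carries a 5-digit number, which was read as the animal. On that inference the 11 libraries come from 11 mice and no mouse received both treatments. Libraries are named by a letter (V, vehicle; N, neratinib) and this number, and the 5 neratinib values of a gene are listed in the order N53178, N53180, N53184, N53193 and N53194. The remaining 8 libraries, 4 with vehicle and 4 with neratinib, hold PDPN+ fibroblasts of 8 of these mice and serve only for the comparison that closes the account.

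Neratinib binds irreversibly to the kinase domains of EGFR, ERBB2 and ERBB4. These receptors are activated by a family of ligands, among them amphiregulin, TGF-alpha, HB-EGF and epiregulin, and pair with ERBB3, whose own kinase is weak but which recruits PI3K. Downstream, RAS and the ERK kinases switch on transcription factors of the AP-1 and ETS families and the phosphatases and Sprouty proteins that restrain the signal. In PDAC the tumour cells keep features of the pancreatic duct, including keratins, mucins and carbonic anhydrases.

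The sorted cells carried the transcripts of ductal tumour cells. Krt19, a ductal keratin, stood at 4035 to 6399 CPM (counts per 1000000 reads, scaled within the comparison) over the 11 libraries, and the mucin gene Muc1 at 1798 to 2863 CPM. Epcam itself fell into separate levels: it stood at 1063, 924 and 651 CPM in 3 libraries and at 123 to 231 CPM in the other 8. The same 3 libraries stood apart on the first principal component of all genes, with 51.94% of the variance (-70.53 to -64.88 against 10.12 to 35.72), and their summed islet markers were 1195, 1413 and 781 CPM against 42.0 to 423 elsewhere. They belong to both treatments (2 vehicle, 1 neratinib). List counts and medians without them are given beside many results but not all. A list printed without such values need not be stable. Depth was 39.4 to 75.4 M gene reads (M, 1000000), with 16485 to 17920 genes reaching 10 reads and mitochondrial shares of 2.15 to 2.89%, and none of these passed a test between treatments (exact permutation, two-sided, smallest p 0.364).

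**Figure D1:**
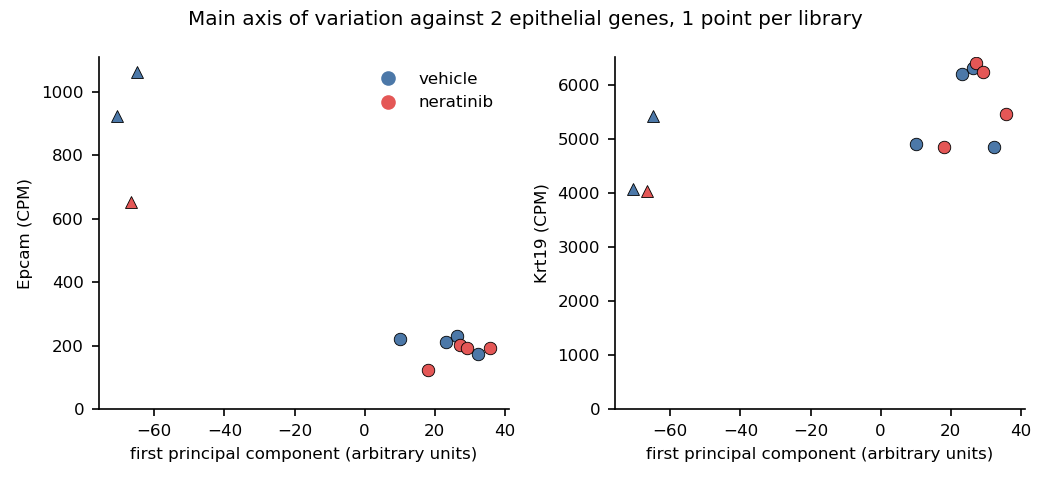
Expression of Epcam (left) and Krt19 (right) in CPM against the first principal component of all genes, 1 point per EpCAM+ library (blue, vehicle; red, neratinib; triangles, the 3 libraries that stand apart). The 3 triangles lie at the left with Epcam between 651 and 1063 CPM, while Krt19 lies between 4035 and 6399 CPM in all 11.

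Across the transcriptome no gene passed. By edgeR, 0 of 17200 genes (0%) had an adjusted p under 0.05, and the smallest adjusted p, shared by Lgals3 and Car2, was 0.616. At an unadjusted p under 0.05 there were 524 genes (3.05%), 260 higher (1.51%) and 264 lower (1.53%) with neratinib, where 860 would be expected by chance. The share of these that were higher, 49.6% here, was 68.4% with limma on log2(TPM + 1) and 37.6% (419 of 1114) without N53178. The median log2 fold change (neratinib minus vehicle, here and below) was -0.00086, with 49.8% of genes positive, and the median standard error was 0.28. DESeq2 on the same counts called 10 of 13842 genes (0.0722%), 3 higher and 7 lower. The lower calls include Amy2a4, Reg2 and Gpc3, with DESeq2 log2 fold changes of -6.7, -4.4 and -1.29. They fall outside the rule for named genes and are not described further. In simulated counts of this design, edgeR recovered 43.0% of 2-fold and 82.8% of 4-fold changes among genes above a minimum mean CPM. Smaller changes were not simulated. Each gene was drawn independently, without the axis that sets the 3 libraries apart, so these shares need not hold for the real libraries. Since nothing passed in edgeR, the values below are estimates and unadjusted p, and "lower" or "higher" describes the position of the libraries. The genes described first below were picked for their small p, so their separation follows from the choice. Of all genes, 41 (0.238%) had groups that did not overlap, 20 higher (0.116%) and 21 lower (0.122%).

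Among the genes lower with neratinib, Lgals3 (ENSMUSG00000050335) had the smallest p. It encodes galectin-3, a lectin that binds galactose-containing glycans and is abundant in ductal tumour cells. Vehicle libraries held 673 to 869 CPM (median 749.6), and the neratinib libraries 481, 485, 457, 554 and 557 CPM. All 5 lay below every vehicle library, and the fold change was -0.61 (SE 0.10, unadjusted p = 6.55e-05, DESeq2 adjusted p = 1.00e-04). Its main transcripts had like differences: the 3 that carry 50.3%, 35.8% and 13.1% of its reads averaged 390, 275 and 101 CPM with vehicle and 253, 184 and 66.2 CPM with neratinib. Anxa2, which encodes the membrane- and actin-binding protein annexin A2, was the most abundant gene of this group. Its vehicle libraries lay at 2955 to 3682 CPM (median 3372) and its neratinib libraries at 2950.0, 1931, 2481, 2318 and 2266 CPM, with a fold change of -0.47 (SE 0.11). The groups were apart by a narrow margin, since N53178 lay just under the lowest vehicle library. Without the 3 libraries that stand apart the Anxa2 estimate was -0.59, and that of Lgals3 -0.65.

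Gadd45g, a stress- and growth-factor-induced gene, held 89.8 to 125 CPM (median 100.3) with vehicle and 72.6, 35.9, 72.5, 63.9 and 57.0 CPM with neratinib (-0.78, SE 0.17), without overlap. Ggh, which encodes the enzyme that trims glutamates from folates, held 47.5 to 73.4 CPM (median 68.9) and 42.6, 40.4, 37.0, 48.7 and 34.3 CPM (-0.68, SE 0.14), and N53193 overlapped the vehicle range. Both were also among the genes DESeq2 called (adjusted p = 0.0423 and 0.014), as was the phospholipid flippase gene Atp10a (8.56 ± 0.920 CPM over 6 vehicle and 4.77 ± 1.26 over 5 neratinib libraries, means with SD). Pvr, the poliovirus receptor and a ligand of immune receptors on T and NK cells, averaged 99.4 ± 10.3 and 72.4 ± 9.51 CPM (-0.46, SE 0.12). Smim14 (-0.41, SE 0.10), the actin-linked PDZ-LIM gene Pdlim4 (-1.0, SE 0.24) and the phosphatase gene Dusp3 (-0.45, SE 0.13) were also among the 12 lower genes with the smallest p, together with Sh3glb1 and the acinar elastase gene Cela3b.

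Car2 (ENSMUSG00000027562) led the genes higher with neratinib. Carbonic anhydrase II supplies bicarbonate for duct secretion and marks duct cells. Vehicle libraries held 941 to 1395 CPM (median 1234) and neratinib libraries 1781, 2065, 2024, 2751 and 2171 CPM. All 5 neratinib libraries exceeded every vehicle library, with a fold change of 0.84 (SE 0.14, unadjusted p = 7.16e-05, DESeq2 adjusted p = 0.00171), and 1 transcript carried 99.6% of the reads. Leaving out the 3 libraries that stand apart gave 0.95. Ugt1a6a, a glucuronosyltransferase gene of the liver-type detoxification family, stood at 30.3 to 48.0 CPM (median 41.3) and at 52.3, 89.7, 75.9, 106 and 60.0 CPM (0.92, SE 0.19, DESeq2 adjusted p = 0.0161), again without overlap. Acaa2, a thiolase of mitochondrial fatty acid oxidation, stood at 86.7 to 123 CPM (median 108) and 135, 165, 145, 146 and 143 CPM (0.47, SE 0.12).

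Slfn9, a Schlafen gene, stood at 5.63 to 12.7 CPM (median 9.59) and 18.1, 19.3, 14.5, 14.7 and 14.5 CPM (0.79, SE 0.21), also without overlap, and the Golgi protein gene Golph3l averaged 76.9 ± 5.17 and 99.9 ± 11.2 CPM (0.38, SE 0.10).

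Some of the remaining higher genes were carried by a few libraries. The basic helix-loop-helix gene Tcf23 averaged 2.40 ± 0.999 CPM with vehicle and lay at 3.63, 11.9, 3.43, 18.3 and 9.11 CPM with neratinib (DESeq2 adjusted p = 0.0414). Enpp3, an ectonucleotide phosphodiesterase gene, lay at 3.86 to 12.8 CPM with vehicle, while N53180 and N53184 reached 66.2 and 71.4 CPM and the other 3 neratinib libraries 8.52 to 14.3. Ush1c, which encodes the brush-border scaffold harmonin, was at 0.127 to 2.70 CPM with vehicle and reached 12.0 and 18.8 CPM in N53193 and N53194. For these genes the highest libraries differed from gene to gene. Atl1, Alg6, Atp8a2 and Ugt1a7c were also among the 12 with the smallest p.

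**Figure D2:**
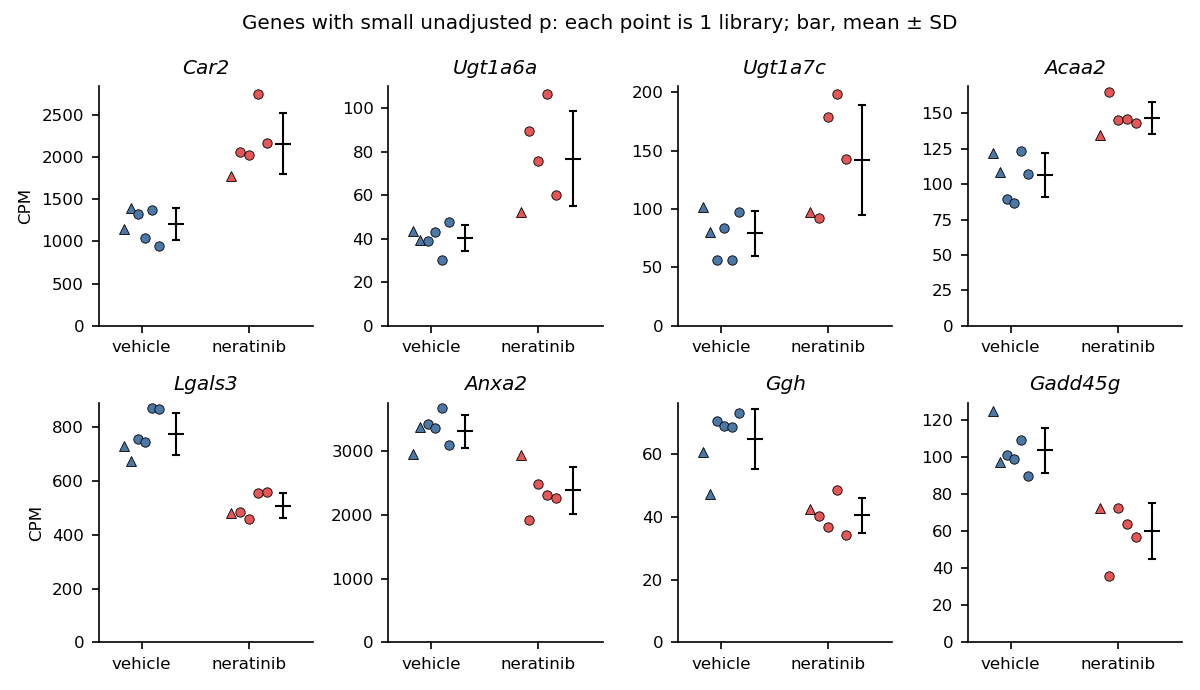
CPM per library of 4 genes higher (top) and 4 genes lower (bottom) with neratinib among those with the smallest unadjusted p; points are libraries (triangles, the 3 that stand apart), bars the mean and SD of each group (n = 6 and 5). The neratinib points of Car2, Ugt1a6a, Acaa2, Lgals3, Anxa2 and Gadd45g do not overlap the vehicle points, whereas 1 Ggh and 2 Ugt1a7c libraries do.

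The bases in front of the start site of 3 of these genes, and of the ERBB ligand gene Areg described next, are shown because AP-1, ETS and CREB factors are the usual endpoints of ERBB signalling. The sequences are the 250 bases before the start in RefSeq's annotation of GRCm38.p6 (81 of 111 named genes looked up have an entry), 5′ to 3′ on the gene's strand. Capitals mark matches, on either strand, to a wide AP-1 pattern that allows any middle base (TGANTCA, in 6.75% of the 32851 promoters of the table), a cAMP response element (TGACGTCA, 1.55%), an ETS site (CCGGAAG, 6.91%) or an antioxidant response element core (TGACNNNGC, 10.2%).
Lgals3, chr14:47373610-47373859, plus strand: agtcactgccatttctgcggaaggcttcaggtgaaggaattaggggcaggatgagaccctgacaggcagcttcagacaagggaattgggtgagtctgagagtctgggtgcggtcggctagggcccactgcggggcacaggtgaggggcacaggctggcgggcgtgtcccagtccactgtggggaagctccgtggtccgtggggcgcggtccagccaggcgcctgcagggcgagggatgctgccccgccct
Anxa2, chr9:69453433-69453682, plus strand: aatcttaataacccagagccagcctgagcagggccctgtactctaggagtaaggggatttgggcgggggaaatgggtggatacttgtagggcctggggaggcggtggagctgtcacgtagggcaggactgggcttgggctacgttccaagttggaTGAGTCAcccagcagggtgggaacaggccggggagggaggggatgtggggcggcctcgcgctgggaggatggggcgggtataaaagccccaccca
Ugt1a6a, chr1:88134559-88134808, plus strand: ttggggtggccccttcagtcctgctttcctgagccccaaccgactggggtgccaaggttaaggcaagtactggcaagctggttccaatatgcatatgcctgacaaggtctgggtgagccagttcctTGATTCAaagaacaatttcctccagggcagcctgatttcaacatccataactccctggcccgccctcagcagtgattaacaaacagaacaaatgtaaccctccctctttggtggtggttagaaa
Areg, chr5:91139349-91139598, plus strand: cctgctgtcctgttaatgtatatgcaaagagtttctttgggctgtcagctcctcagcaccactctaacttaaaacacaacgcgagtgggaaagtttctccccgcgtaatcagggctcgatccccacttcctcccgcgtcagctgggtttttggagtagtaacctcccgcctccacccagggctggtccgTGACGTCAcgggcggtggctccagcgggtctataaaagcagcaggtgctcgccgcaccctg
The AP-1 pattern match in front of Anxa2 begins 95 bases before the start, that of Ugt1a6a 124 bases before, and the cAMP response element of Areg 61 bases before. The usual AP-1 site has C or G in the middle, as at Anxa2. The Ugt1a6a stretch has T there and matches only the wide pattern. The Lgals3 window holds none of these letters. Matches are descriptions of the window only, and no binding was measured.

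The genes of the drug's own targets were measured next. Of the receptors, Erbb3 was the most abundant per length (67.6 ± 28.9 TPM, length-corrected transcript share per 1000000, mean and SD over the 11 libraries), followed by Egfr (22.4 ± 8.39) and Erbb2 (18.0 ± 6.46), which lie within their spread of each other. Erbb4 was at or near 0: its highest value was 0.381 CPM in V53176, and it was not tested. Erbb3 stood at 131 to 408 CPM (median 254) with vehicle and at 154, 442, 251, 360.4 and 438 CPM with neratinib (0.40, SE 0.34). Erbb2 stood at 28.9 to 66.9 CPM (median 62.3) and at 26.9, 86.3, 62.2, 83.1 and 70.3 CPM (0.26, SE 0.30). The groups overlapped for both, and N53178 was the lowest neratinib library. The vehicle libraries that stand apart with it held 43.8 and 28.9 CPM of Erbb2 and 145 and 131 CPM of Erbb3. Egfr stood at 46.1 to 117 CPM (median 68.2) and at 58.5, 86.5, 59.4, 62.6 and 87.9 CPM, a difference of -0.049 (SE 0.25).

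Hbegf, whose product is cleaved from the cell surface to activate EGFR and ERBB4, was by far the most abundant ligand gene (559 ± 60.7 TPM). It was followed by Btc (betacellulin, 46.2 ± 10.3), Areg (amphiregulin, 23.7 ± 12.9), Tgfa (14.6 ± 5.49) and Ereg (epiregulin, 6.50 ± 2.14). Hbegf stood at 669.7 to 964 CPM (median 809) with vehicle and 697, 762, 660.5, 841 and 759 CPM with neratinib, an estimate of -0.12 (SE 0.12) that turned to 0.028 without the 3 libraries that stand apart. Areg stood at 9.85 to 40.2 CPM (median 19.5) and at 18.7, 16.8, 7.96, 12.4 and 8.68 CPM (-0.77, SE 0.41, unadjusted p = 0.0837), the lowest estimate of the family, with overlapping groups. Without the 3 libraries it was -0.52. Estimates were 0.078 (SE 0.28) for Tgfa, -0.13 (SE 0.27) for Ereg and -0.19 (SE 0.16) for Btc. Nrg1, the neuregulin 1 gene, reached 0.615 CPM in V53192 and at most 0.0894 CPM elsewhere, and Epgn, the epigen gene, at most 0.212 CPM, and neither was tested. Over the list of receptors, ligands and negative regulators, 18 of 23 genes were tested, 6 were positive, and the median was -0.12 (-0.17 without V53176 to -0.024 without N53178). None had an unadjusted p under 0.05. Negative regulators were lower in 7 of 8 cases, led by Errfi1, which encodes the EGFR inhibitor MIG6 (247 ± 99.1 and 187 ± 62.2 CPM, -0.40, SE 0.29), but again with none at that threshold.

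Genes that ERK signalling switches on were mostly estimated a little lower. Of the 23 genes of the list, 19 were negative with a median of -0.12 (all genes, -0.00086), and 17 of 23 were negative without the 3 libraries that stand apart (-0.14). Leaving out single libraries moved the median from -0.22 without V53175 to -0.083 without N53193. Averaged over its genes, log2 CPM lay at 5.69 to 6.11 in vehicle libraries and 5.50, 5.94, 5.89, 5.66 and 5.95 in neratinib libraries, so that N53178 and N53193 lay below the vehicle range and the other 3 inside it. On log2(TPM + 1) the median of the list was -0.04. Single members at an unadjusted p under 0.05 were 1 lower (Fosl1) and 1 higher (Etv1), and without the 3 libraries 1 and 0. Over all genes 1.53% were lower and 1.51% higher at that threshold.

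Fosl1 encodes FRA-1, an AP-1 subunit stabilised by ERK. It stood at 55.9 to 98.7 CPM (median 83.6) and at 34.2, 70.7, 58.0, 51.6 and 61.8 CPM (-0.54, SE 0.21, unadjusted p = 0.0254), and without the 3 libraries the estimate was -0.58 (unadjusted p = 9.33e-04). Among the ETS factor genes, Etv1 stood at 5.56 to 14.8 CPM (median 11.2) and 15.4, 10.8, 17.2, 16.6 and 15.5 CPM (0.52, SE 0.23), with N53180 the 1 neratinib library inside the vehicle range, while Etv4 (-0.20, SE 0.52) and Etv5 (-0.12, SE 0.35) spread widely in both groups. The 4 phosphatase genes were all negative. Dusp6, the cytosolic ERK phosphatase used as a gauge of the pathway, stood at 296 to 387 CPM (median 348) with vehicle and at 354, 330.3, 341, 297 and 299 CPM with neratinib (-0.10, SE 0.10). The groups overlapped, and no other gene of the list had a smaller standard error. The nuclear phosphatase genes Dusp4 (-0.57, SE 0.29) and Dusp5 (-0.34, SE 0.19) were less certain, and Dusp4 was highest in V53192 (62.3 CPM).

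The feedback inhibitor genes Spry2 and Spry4, which encode Sprouty proteins, differed by -0.0099 (SE 0.23) and -0.015 (SE 0.20). Ccnd1, the cyclin D1 gene that carries mitogenic signals into the cell cycle, stood at 651 to 1369 CPM (median 1057) and at 731, 1025, 1014, 745 and 1065 CPM (-0.15, SE 0.22), and Myc at 235 ± 23.4 and 236 ± 48.3 CPM (0.012, SE 0.13). Plaur, the urokinase receptor gene, Emp1, a membrane protein gene, and Epha2, an ephrin receptor gene, had estimates of -0.29, -0.24 and -0.051. Phlda1 varied widely between libraries (125 to 926 CPM with vehicle, 73.7 to 691 with neratinib) and gave -0.73 (SE 0.71).

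**Figure D3:**
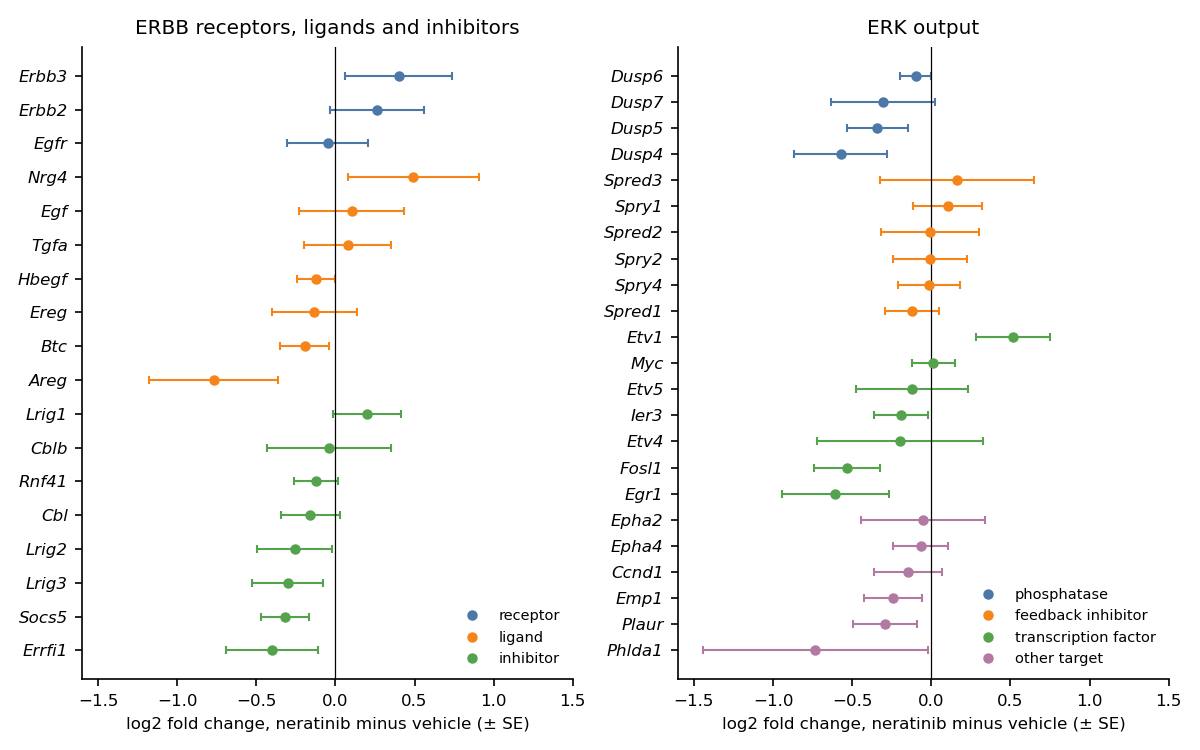
Log2 fold change from edgeR (neratinib minus vehicle) with its standard error for the 18 tested ERBB genes (left) and the 23 ERK output genes (right), coloured by role. Most points lie within 2 standard errors of 0, with Etv1 (0.52), Fosl1 (-0.54) and Socs5 (-0.32) beyond.

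Immediate early genes are the first to respond to growth factors and are also induced when tissue is dissociated for sorting. Of 22 such genes 20 were negative, with a median of -0.19, and 18 of 22 without the 3 libraries (-0.14). Over all genes 49.8% were positive and 1.53% lower at an unadjusted p under 0.05. The list's mean log2 CPM was 7.75 to 7.92 in vehicle libraries and 7.43, 7.77, 7.56, 7.38 and 7.31 in neratinib libraries, so N53180 alone reached the vehicle range. Jund, an AP-1 gene, stood at 18.0 to 28.2 CPM (median 25.1) and 18.4, 17.1, 19.7, 18.3 and 13.6 CPM (-0.45, SE 0.16, unadjusted p = 0.0158), and with Gadd45g made up the 2 members at that threshold (3 without the 3 libraries, where the unadjusted edgeR p of Jund was 0.0531). Egr1, which the ERK list also holds, stood at 294 to 928 CPM (median 403) and 482, 349.7, 302, 255 and 368 CPM (-0.61, SE 0.34), and -0.14 without the 3 libraries. Heat shock gene Hspa1a stood at 123 to 312 CPM with vehicle, at 275 in N53180 and at 74.9 to 117 in the other neratinib libraries. The part of dissociation in the early gene and ERK values was not tested.

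Glucuronosyltransferases attach glucuronic acid to drugs, bilirubin and steroids, and glutathione S-transferases and the NRF2 targets handle electrophiles. Of 25 tested genes of this group 19 were positive (median 0.17), 5 at an unadjusted p under 0.05 were higher and 1, Ggh, lower (all genes, 1.51% and 1.53%). Without the 3 libraries 19 of 25 were positive (0.29), with 6 higher and 1 lower. The median was 0.12 without N53193 and 0.32 without N53184. All 6 tested glucuronosyltransferase genes were positive, with a median of 0.87. Ugt1a7c stood at 56.0 to 102 CPM (median 81.9) with vehicle and 97.7, 92.6, 179, 198 and 143 CPM with neratinib (0.84, SE 0.24). Ugt1a2 was low throughout, at 0.105 to 0.381 CPM (median 0.219) and 0.686, 0.643, 0.867, 0.602 and 0.376 CPM (1.48, SE 0.40). Ugt1a1, which conjugates bilirubin, stood at 2.46 to 30.8 CPM (median 12.9) and 17.2, 9.13, 4.11, 34.8 and 19.4 CPM (0.16, SE 0.62). The Ugt1a genes share their last exons, so Salmon divides reads between them, and the split of reads among Ugt1a6a, Ugt1a7c and Ugt1a2 is uncertain. Ugt2b34 lies outside that cluster of shared exons and held 202 to 525 CPM (median 368) and 386, 627, 514, 1109.6 and 390.4 CPM (0.72, SE 0.30). Gsta1, a glutathione S-transferase gene with close paralogs, was set by N53193 (689 CPM) and lay at 35.8 to 205 CPM in the other neratinib libraries. Ugt1a1, Ugt2b34 and Gsta1 were named after their values were seen.

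Car2 stood alone among the carbonic anhydrases and ductal ion transporters: 10 of 21 tested genes were positive, the median was -0.0054, and only Car2 had an unadjusted p under 0.05. The bicarbonate cotransporter gene Slc4a4 was at -0.30 (SE 0.17). Lgals3 stood likewise apart from most galectins, of which 6 of 8 were positive. Lgals9 averaged 341 ± 40.7 and 404 ± 48.5 CPM (0.24, SE 0.11), Lgals2 571 ± 131 and 706 ± 149.7 (0.31), and Lgals1 281 ± 34.6 and 211 ± 85.3 (-0.41, SE 0.23). A single galectin gene was higher at an unadjusted p under 0.05 without the 3 libraries. Whether Car2 or Lgals3 differ from their relatives was not tested.

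PDAC cells are often placed on a scale between a classical state, with gastric and ductal genes, and a basal-like state, with squamous keratins. Positive estimates were found for 14 of 27 classical genes (median 0.02) and for 5 of 12 basal-like genes (-0.03). Cldn18, a tight junction gene of gastric epithelium, was the 1 classical gene at an unadjusted p under 0.05 (660.0 to 1154 CPM (median 775) and 658, 652, 754, 551 and 554 CPM, -0.37, SE 0.15). Sprr1a, a cornified envelope gene, was at -0.44 (SE 0.22). Both medians depended on the libraries used. The basal-like one was -0.22 without the 3 that stand apart (2 lower at the threshold), -0.31 without N53194 and 0.068 without V53185, and the classical one -0.13 without N53180 and 0.15 without V53179. Without the 3 libraries 15 of 27 classical genes (0.07) and 3 of 12 basal-like genes were positive. Of keratin and junction genes 12 of 21 were positive (0.0016), with Krt19 at 0.027 (SE 0.15), Muc1 at 0.21 (SE 0.12) and Krt23 at -0.42 (SE 0.23). Mesenchymal genes had 8 negative estimates of 10 (median -0.41, and -0.64 without N53194), none at the threshold, and 1 without the 3 libraries.

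Replication and mitosis genes leaned higher: 22 of 26 were positive (median 0.18, all genes 49.8% positive), and 20 of 26 without the 3 libraries (0.13). The median was 0.093 without N53193 and 0.29 without V53192. Over 24 alternative settings the estimate of Ccnb2 was negative in all (-0.51 to -0.24). That of Mki67 lay between -0.011 and 0.15. Top2a, the topoisomerase of dividing cells, stood at 33.3 to 80.2 CPM (median 42.6) and at 69.9, 62.6, 62.0, 73.9 and 59.8 CPM (0.45, SE 0.20, unadjusted p = 0.0454), and Cdk1 at 19.4 to 40.3 and 29.0 to 35.9 CPM (0.38, SE 0.19). V53192 was the highest library for both, above every neratinib library, and without the 3 libraries Top2a was no longer at the threshold (0.34). The list's mean log2 CPM was 4.88 to 5.18 with neratinib and 4.56 to 4.88 in 5 vehicle libraries, with V53192 at 5.35. G1 cyclin, CDK inhibitor and p53 target genes were positive in 9 of 21 cases (-0.09) and genes of the BCL2 family of cell death regulators in 4 of 14 (-0.05), with none at the threshold (1 G1 gene higher without the 3 libraries) and Bax at -0.26 (SE 0.16). Without the 3 libraries 6 of 21 (-0.05) and 6 of 14 (-0.05) were positive. Receptors other than the ERBB family, insulin signalling genes and FOXO targets were positive in 9 of 20 cases (-0.03), with none at the threshold and 2 higher without the 3 libraries (10 of 20 positive, 0.011). Of these, Irs1, the insulin receptor substrate, was highest in N53194 (91.3 CPM against 14.5 to 41.0 with vehicle), and Txnip averaged 130.1 ± 28.5 and 176 ± 53.8 CPM.

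In metabolism the differences were small. Cholesterol synthesis genes were positive in 18 of 24 cases with a median of 0.05, with the sterol sensor gene Insig1 at -0.37 (SE 0.20), and fatty acid synthesis genes in 7 of 10 (0.14), with the elongase gene Elovl6 at 0.29 (SE 0.14). Glycolysis and hypoxia genes were negative in 16 of 22 (-0.13). Adm, which encodes the hypoxia-induced peptide adrenomedullin, stood at 43.2 to 143 CPM (median 67.0) and 49.9, 37.6, 43.6, 54.9 and 40.6 CPM (-0.72, SE 0.29), and the glycolytic enzyme gene Pgk1 at 293 to 390.0 CPM (median 332) and 269, 222, 290.5, 314 and 299 CPM (-0.28, SE 0.12). Both were at an unadjusted p under 0.05, and Adm alone without the 3 libraries. These medians moved with single libraries, for fatty acid genes from 0.053 without N53193 to 0.27 without N53178, and for glycolysis and hypoxia genes from -0.19 without N53193 to -0.021 without V53179. At the threshold, 2 fatty acid genes were higher and 1 lower without the 3 libraries. Also without them, 14 of 24 cholesterol genes (0.03) and 6 of 10 fatty acid genes (0.08) were positive. Of glycolysis and hypoxia genes 18 of 22 were then negative (-0.16).

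Genes of endoplasmic reticulum stress and the amino acid response had 17 of 20 negative estimates (median -0.16), and 18 of 20 without the 3 libraries (-0.23), where 4 rather than 1 were lower at an unadjusted p under 0.05. The median was -0.25 without N53178. Averaged over its genes, log2 CPM lay at 6.44 to 6.86 with vehicle and 6.56, 6.34, 6.55, 6.36 and 6.20 with neratinib. Ddit3, which encodes the stress factor CHOP, stood at 25.1 to 43.9 CPM (median 31.7) and 29.9, 15.6, 14.6, 21.2 and 33.3 CPM (-0.53, SE 0.24), and Slc3a2, a subunit of amino acid exchangers, at 276 ± 22.5 and 235 ± 34.4 CPM (-0.23, SE 0.11). Lysosome and autophagy genes were positive in 6 of 19 cases (-0.06). The autophagy receptor gene Sqstm1 averaged 520.5 ± 41.0 and 429 ± 79.5 CPM (-0.28). Gpnmb, a melanosomal and macrophage glycoprotein gene, was at or below 0.636 CPM with vehicle and reached 4.72 and 6.06 CPM in N53184 and N53194.

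Immune genes were higher in some neratinib libraries. The interferon response list had 15 of 17 genes positive (median 0.21), with Usp18 (13.2 to 20.0 CPM (median 17.6) and 23.7, 20.3, 36.7, 16.9 and 26.7 CPM, 0.52, SE 0.20) and Isg15 (6.59 to 12.0 CPM (median 8.80) and 15.9, 7.55, 17.5, 10.5 and 13.6 CPM, 0.52, SE 0.23) higher and Ifit2 (-1.46, SE 0.58) lower at an unadjusted p under 0.05. There was 1 higher and 1 lower without the 3 libraries. MHC genes, which present antigen to T cells, had 14 of 16 positive (0.43), 3 of them at an unadjusted p under 0.05 (Nlrc5, H2-Ab1 and H2-Eb1). Of all genes tested, 49.8% were positive, with 1.51% higher and 1.53% lower at that threshold. Of the same genes 15 of 16 were positive (0.48) and none was at the threshold without the 3 libraries, and without N53194 the median was 0.22. All 5 class II genes were positive, such as H2-Ab1 (0.726 to 7.96 CPM (median 1.86) and 8.33, 2.17, 9.41, 3.87 and 11.6 CPM, 1.35, SE 0.61) and H2-Eb1 (0.200 to 2.06 CPM (median 0.804) and 2.82, 0.680, 3.57, 1.18 and 3.68 CPM, 1.40, SE 0.58). Nlrc5, the transactivator of class I genes, was set by N53184 (11.0 CPM, against 0.662 to 1.27 in the other neratinib libraries). N53178, N53184 and N53194 held the highest H2-Ab1 and H2-Eb1 values, and the same libraries held the most transcripts of the macrophage complement genes given below. The part of macrophage RNA in the MHC values was not tested. Without N53184 the interferon median was -0.01.

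Of 9 tested chemokine genes 8 were positive (all genes, 49.8%). The wider list of chemokines, cytokines and NF-kB genes, with 26 tested, had 13 positive and 13 negative (median -0.0058). Of its cytokine genes 4 of 10 were positive, and of its NF-kB targets 1 of 7. On the wider list 2 genes were higher and 1 lower at the threshold (all genes, 1.51% and 1.53%). Without the 3 libraries these were 3 and 1. The epithelial chemokine gene Ccl28 stood at 8.09 to 18.8 CPM (median 9.55) and 56.5, 15.1, 11.0, 16.1 and 21.4 CPM (1.06, SE 0.41), set largely by N53178, and the monocyte attractant gene Ccl2 at 0.121 to 1.25 CPM (median 0.495) and 2.67, 0.441, 3.25, 0.194 and 3.33 CPM (1.77, SE 0.74, and 1.40 with an unadjusted p of 0.145 without the 3 libraries). Cxcl16, a membrane-bound chemokine, was the 1 negative chemokine gene (333 to 409 CPM (median 351) and 356, 261, 294, 239 and 208 CPM, -0.40, SE 0.13, unadjusted p = 0.011). Il1rn, the interleukin-1 receptor antagonist gene, averaged 464 ± 71.9 and 369.9 ± 93.9 CPM. Ligands through which tumour cells address fibroblasts, of the TGF-beta, PDGF, hedgehog and FGF families, were positive in 10 of 24 cases (median -0.08, and -0.22 without N53194). Leaving out the 3 libraries, 10 of 23 were positive (-0.17), 1 higher and 2 lower at the threshold, against 0 and 1 as reported. Pdgfa (-0.56, SE 0.29) and Bmp4 (-0.41, SE 0.21) had overlapping groups. The Fgf2 estimate (-2.13, SE 0.84) carried the value of V53192 (11.9 CPM), the other vehicle libraries lying at 0.357 to 3.01 CPM and the neratinib libraries at 0.515 to 0.927.

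**Figure D4:**
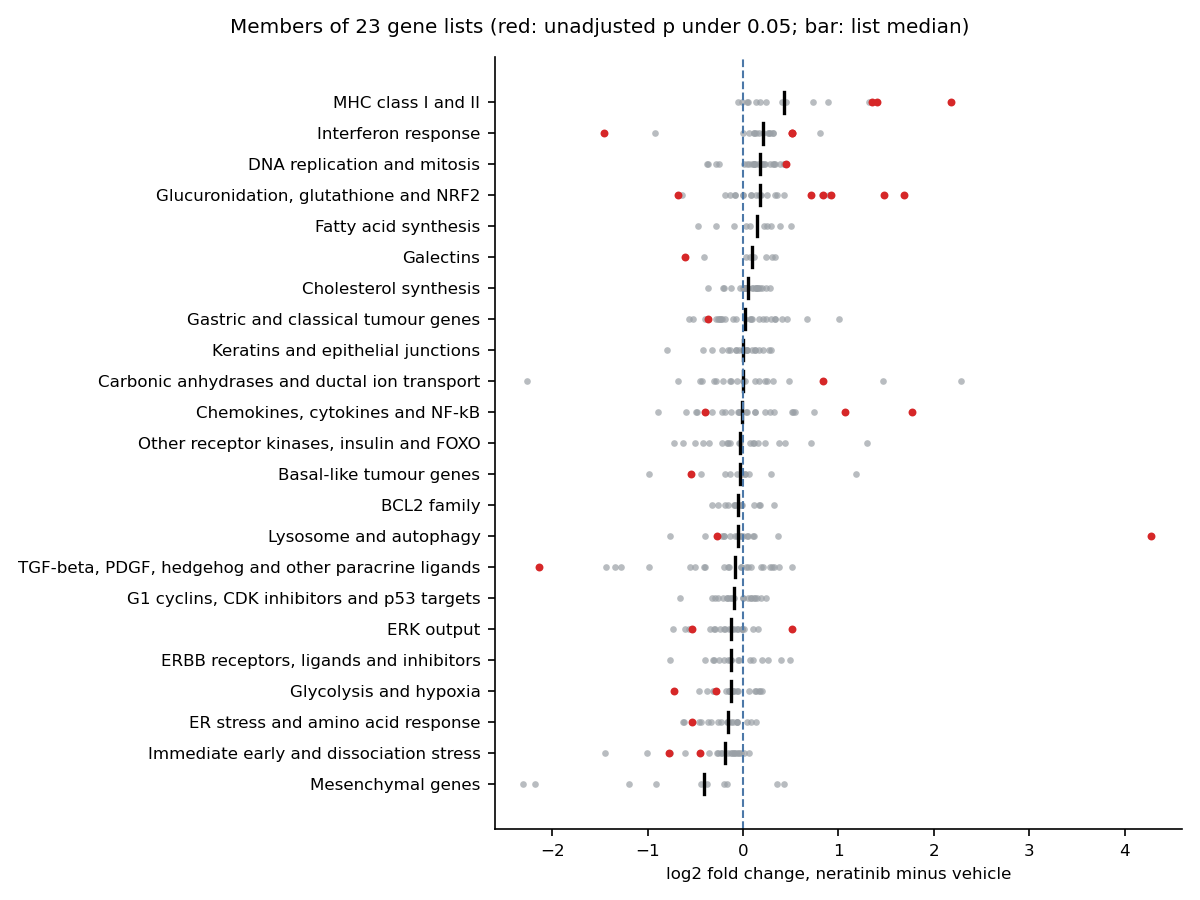
Log2 fold change (neratinib minus vehicle) of the tested members of 23 gene lists, ordered by list median (black bars); red points have an unadjusted p under 0.05 and the dashed line is the median of all genes (-0.00086). List medians lie between -0.41 (mesenchymal genes) and 0.43 (MHC genes), and most members lie near the line.

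Markers of other cells that an EpCAM gate or carry-over could bring were measured in the same libraries. Of the pancreatic acinar genes, 9 of 11 tested were lower with neratinib at an unadjusted p under 0.05 (all genes, 1.53%), and 8 of 10 without the 3 libraries. Members such as Cela3b and Cela2a reached the count filter mainly through vehicle libraries. They were tested in 6 and 7 of the 11 fits that left out 1 library. Lower estimates for such genes were favoured by the filter, and the members need not vary independently, so the count is no test. Summed, the full list stood at 104 to 1401 CPM with vehicle and 23.1 to 647 CPM with neratinib (exact permutation p = 0.442). Summed over the list without Reg1, a gene that ductal tumours also express, they stood at 7.78 to 1078 CPM with vehicle (median 181) and at 12.0, 10.6, 36.6, 13.0 and 7.60 CPM with neratinib (exact permutation test, two-sided, p = 0.0649, adjusted over 16 measures 0.722, smallest possible 0.00433). V53175 and V53179 were as low as the neratinib libraries, while V53192 was highest. Cela2a, an elastase gene, stood at 0 to 171 CPM (median 14.6) and at 0, 0.0184, 0.988, 0.043 and 0.0179 CPM, and Cela3b had 0 reads in 3 neratinib libraries and 1 vehicle library, which allows up to 0.0735 CPM. In bulk RNA of sorted cells, fewer acinar cells and less RNA per cell cannot be told apart. Acinar genes share near-identical paralogs, so their reads may be split.

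Islet markers summed to 70.4 to 1413 CPM with vehicle and 781, 423, 248, 116 and 42.0 CPM with neratinib. Gcg, the glucagon gene, stood at 8.36 to 48.5 CPM (median 23.6) and 212, 253, 63.9, 52.4 and 1.95 CPM (2.25, SE 0.84, unadjusted p = 0.0211, and 0.12 without the 3 libraries), and the insulin gene Ins2 at 9.20 to 912 and 15.3 to 238 CPM (-1.73, SE 1.20). The direction turned without the 3 libraries: Ins2 was at 0.67, and the difference in summed islet markers, neratinib minus vehicle, went from -185 to 98.5 CPM (exact permutation p = 0.541 and 0.343). Of the 10 macrophage markers, 9 were tested, with 6 positive and 3 negative (median 0.81, lowest -0.29). Only the 3 complement genes were at an unadjusted p under 0.05, all higher. C1qb stood at 0.147 to 1.27 CPM (median 0.448) and 2.38, 0.129, 5.42, 1.33 and 3.55 CPM (2.27, SE 0.74). C1qa (2.22) and C1qc (2.32) were estimated similarly, with N53180 low for all 3. Only 2 macrophage genes were at the threshold without the 3 libraries that stand apart, and C1qb was not among them (2.18). Over all genes and all 11 libraries 1.51% were higher at that threshold. Summed macrophage markers were 36.7 to 71.2 CPM with vehicle and 83.4, 43.8, 72.9, 52.4 and 72.0 CPM with neratinib (exact permutation p = 0.156), and no marker of the list was at 0 in all libraries. Fibroblast markers summed to 19.6 to 181 CPM with vehicle and to 36.2, 48.9, 35.3, 54.6 and 275 CPM with neratinib, the highest being N53194, and none of its 9 genes was at the threshold. Neutrophil (6 tested), lymphocyte (2), endothelial (4), red cell (3), mesothelial (5) and tuft cell (4) markers likewise had none, and 1 tuft cell gene was lower without the 3 libraries. Whether these cells set any of the differences above was not tested, apart from the values given.

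**Figure D5:**
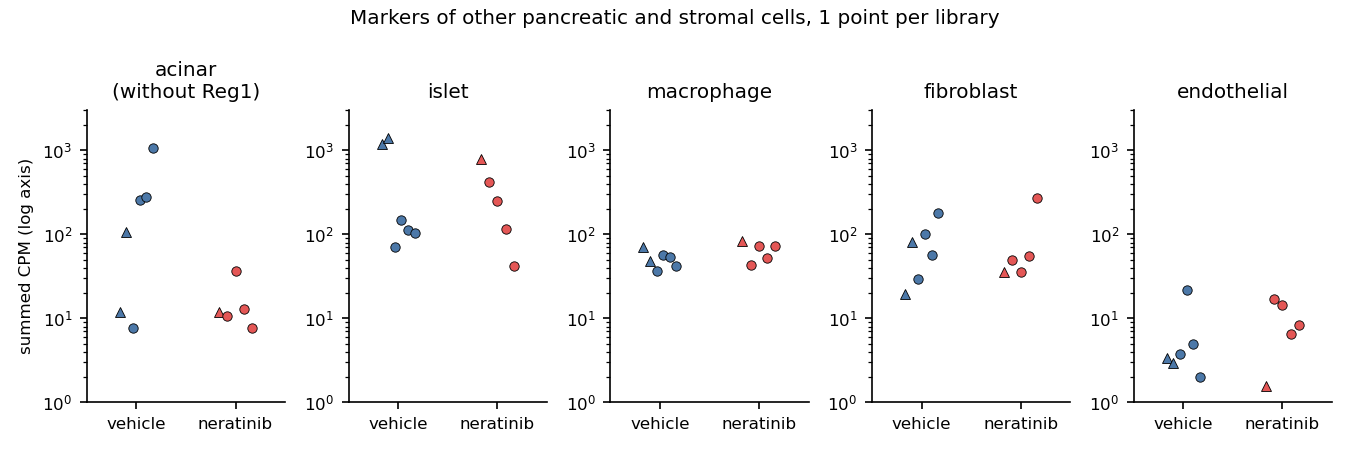
Summed CPM, on a log axis, of markers of 5 other cell types, 1 point per EpCAM+ library (triangles, the 3 libraries that stand apart). Acinar sums, drawn without Reg1, span 7.78 to 1078 CPM with vehicle and 7.60 to 36.6 CPM with neratinib. With Reg1 included they span 104 to 1401 and 23.1 to 647 CPM. The islet sums of the 3 triangles are the 3 highest.

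The neratinib effect in EpCAM+ cells was then set against that in PDPN+ fibroblasts of mice with the same numbers. In a fit of all 19 libraries edgeR's interaction test called 13 of 19626 genes (0.0662%), 12 with a higher and 1 with a lower difference (EpCAM+ minus PDPN+). Only 1 gene passed without the 3 libraries that stand apart, and 131 without V53188 in PDPN+ cells. In PDPN+ cells alone 0 of 14437 genes passed (0%), with 331 at an unadjusted p under 0.05 (2.29%). Of the 24 genes picked above for their small p, Car2 alone was among the 13, with a difference of 7.90 (SE 1.23, adjusted p = 0.0105). This rests on low levels in fibroblasts: Car2 stood at 0.852, 1.40, 4.61 and 22.6 CPM in the vehicle libraries of the PDPN+ cells and at 0, 0, 0 and 0.210 CPM in the neratinib ones. It did not pass with limma voom, with mouse as a replicate block (adjusted p = 0.378) or with no block (0.375), nor without the 3 libraries that stand apart (0.124), and it was estimated at 12.24 without N53194 in PDPN+ cells. Trmt61b, a tRNA methyltransferase gene, and Large2, a glycosyltransferase gene, led the 2 directions. Each had EpCAM+ estimates near 0 (-0.17 and 0.19) and was at or near 0 in 1 of the PDPN+ groups: Trmt61b had 0 reads in all 4 neratinib libraries, which allows up to 0.0989 CPM. Without the 3 libraries Large2 did not pass (adjusted p = 0.0563) and Trmt61b did (0.0375). Lgals3, by contrast, was estimated at -0.51 (SE 0.41) in PDPN+ cells, and the difference from the EpCAM+ estimate was -0.094 (SE 0.38, adjusted p = 1).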

How the data were processed

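RNA of EpCAM+ cells was sequenced from 11 libraries, and PDPN+ libraries entered only the interaction. The authors quantified reads with Salmon 1.9.0 against GRCm39, per the submitters' processing notes. Transcriptome release, options and strand setting are not given in the labels or headers. The deposited tables hold, per transcript, estimated counts (not normalised) and TPM (scaled to 1000000 per library, corrected for length by Salmon), per the file headers. Of 147828 transcripts listed, 137063 matched GENCODE M21 identifiers and were summed per gene and rounded to whole reads. The 10765 unmatched held 1.77 to 2.26% of EpCAM+ reads and were left out.

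The rounded counts of vehicle and neratinib libraries were compared by the quasi-likelihood test of edgeR 4.0.16 in R 4.3.3. Libraries were scaled by TMM, weakly counted genes removed by filterByExpr, and p-values adjusted by Benjamini-Hochberg over all genes (threshold 0.05). The fit was made over the 11 EpCAM+ libraries with no covariate. The interaction was fitted over 19 libraries with 4 group means. Standard errors were calculated as the absolute log2 fold change of edgeR divided by the square root of its F statistic. They are approximate, and unreliable where a group is at or near 0. Means are given with SD. Library measures were compared by exact two-sided permutation over 462 arrangements and adjusted over 16 measures. Where a library had 0 reads of a gene, up to 3 reads were taken as the limit. This limit holds for counting error alone: reads copied by PCR and not marked by molecular identifiers do not stand for separate molecules. The code was tested on simulated counts with 200 genes changed by known folds. It made 128 calls there, of which 3 were false.

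Named genes are, by rule, the 12 per direction with the smallest unadjusted edgeR p at a mean of at least 4 CPM, up to 4 members of each list with the smallest p, all ERBB and ERK genes, a fixed set, and 4 interaction genes per direction. Not every gene so chosen is printed, and some items are not reported here. Members, lists and tests were chosen with earlier results of these data known, and lists are described by counts and medians without a test. All libraries share the organoid kind and host strain, and the number of organoid lines is not stated. If all tumours came from 1 line, p-values would measure the spread between hosts of that line. If the 5-digit numbers did not mark mice, p-values would measure only the spread between these samples. No mouse gave EpCAM+ cells to both treatments, so these groups hold no pairs. Also run were DESeq2 1.42.0, edgeR with the size factors of DESeq2, other count filters, transcript-length offsets, limma 3.58.1 (voom with sample weights, and log2(TPM + 1) or log2(TPM + 0.1) at a mean TPM of at least 1), all 19 libraries in 1 fit, a covariate for the column digit in the deposited file names or for the 3 libraries that stand apart, and leaving out libraries. RefSeq promoters come from GRCm38.p6, another build than the reads were mapped to, and are used as sequence only.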

Additional observations from a re-analysis of the deposited data

Results flagged for a closer look

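In a group of 5 or 6 libraries, a value was singled out when its gap to the nearest other library took a larger share of the group's range than Dixon's 95% limit allows. Of 254 groups of values examined 31 did so, and 7 of the 31 lay in the 3 libraries that stand apart on the first principal component. About 1 in 20, or 12.7, would do so by chance if the groups were independent and normally distributed. CPM of chosen genes, and sums that contain some of the same genes, need not be, so no excess over chance is read from the count. No explanation was weighed for the values singled out.

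N53178 stood off from the other neratinib libraries in Epcam (651 CPM, next 201, a gap of 0.852 of the range), the carbonic anhydrase gene Car4 (1.54 CPM, next 0.242, gap 0.843), Ccl28 (56.5 CPM, gap 0.770), the summed neutrophil markers (32.3 CPM, gap 0.919) and the first principal component (-66.72, gap 0.827). V53176, another of the 3, was high in Erbb4 (0.381 CPM, gap 0.834) and in the summed red cell markers (53.1 CPM, gap 0.877).

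V53192 was the high vehicle library for Dusp4 (62.3 CPM, gap 0.639), Top2a (80.2 CPM, gap 0.655), Cdk1 (40.3 CPM, gap 0.744), Fgf2 (11.9 CPM, gap 0.769), Nrg1 (0.615 CPM, gap 0.855), Gpnmb (0.636 CPM, gap 0.868), Cela3b (41.9 CPM, gap 0.805), Cela2a (171.1 CPM, gap 0.669) and the summed acinar markers without Reg1 (1078 CPM, gap 0.750). V53185 was high in H2-Ab1 (7.96 CPM, gap 0.696), H2-Aa (3.42 CPM, gap 0.772), C1qb (1.27 CPM, gap 0.642) and the summed endothelial markers (21.9 CPM, gap 0.850). V53179 was high in Dusp5 (23.2 CPM, gap 0.647) and Cldn18 (1154 CPM, gap 0.696).

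Among neratinib libraries, N53184 was high in Nlrc5 (11.0 CPM, gap 0.941), Cela3b (0.202 CPM, gap 0.893), Cela2a (0.988 CPM, gap 0.956) and the summed acinar markers without Reg1 (36.6 CPM, gap 0.814). N53180 was low in Etv1 (10.8 CPM, gap 0.717) and high in Hspa1a (275 CPM, gap 0.791) and the red cell markers (8.01 CPM, gap 0.924). Gsta1 was high in N53193 (689 CPM, gap 0.741) and the summed fibroblast markers in N53194 (275 CPM, gap 0.919).

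Between populations, the neratinib effect (EpCAM+ minus PDPN+ cells, log2) differed by edgeR's interaction test for Car2 (7.905), Trmt61b (11.27) and Large2 (-7.243). In each case the PDPN+ libraries of 1 treatment were at or near 0, so the fitted values depend on the prior count and are no measure of size.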

How the results depend on the processing

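The count of 0 genes passing in EpCAM+ cells was also 0 under 11 of the 12 planned changes of tool, filter, scaling, unit or covariate, without the 3 libraries that stand apart and without each single library in turn. DESeq2 called 10. Genes at an unadjusted p under 0.05, 524 as reported, numbered 204 with all 19 libraries in 1 fit, 936 with a covariate for the libraries that stand apart and 797 without them, 898 with limma voom and sample weights, 1114 on log2(TPM + 1) with no filter and 1366 with no low-count filter, and 418 to 1114 without single libraries, the highest without N53178 and the lowest without V53176. Why these counts differ was not tested, beyond the number of genes and libraries entering each fit. Of 2568 alternative values of 108 named genes in EpCAM+ cells, 4 changed direction where the reported estimate lay more than 1 standard error from 0: Hbegf to 0.028 without the 3 libraries, and Ins2 to 0.19 with the covariate, 0.22 with voom weights and 0.67 without the 3. A further 7 passed with DESeq2. The summed acinar markers without Reg1 differed by -329.6 to -115.5 CPM when single libraries were left out, with an exact permutation p of 0.0397 without V53175 and 0.0238 without V53179. The column digit of the file names, which no label calls a batch, left 0 genes passing as a covariate. The leading number in the titles is lower in all vehicle than in all neratinib libraries of each population, so an order of handling, if it marks one, cannot be told apart from treatment. Among 23 gene lists, the median changed sign in 10 when some single library was left out.

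The comparison with PDPN+ cells was less stable. Against 13 genes as reported, DESeq2 gave 633 and the fit without the 3 libraries 1. Leaving out single libraries gave 9 to 131 genes: 28 without N53178, 21 without N53184, 59 without N53194, 127 without V53175, 23 without V53185 and 131 without V53188, each in PDPN+ cells. With mouse as a replicate block, which pairs the populations of 1 mouse, voom gave 13, and 13 with no replicate block. The correlation within a mouse was estimated at 0.00572, and Car2 did not pass with voom either with the block (adjusted p = 0.378) or without it (0.375). Large2 did not pass without the 3 libraries (adjusted p = 0.0563, difference -7.26). The cause was not tested. The limit that 3 reads set for a count of 0 was 0.0403 to 0.0735 CPM in EpCAM+ libraries and, unscaled, 0.0624 to 0.0989 CPM in PDPN+ libraries.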
